A study of Nematostella vectensis with 47 samples.

Results

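The regions described here are CpG-poor methylated bins of the genome of the starlet sea anemone Nematostella vectensis, followed through a cross between a male with depleted DNA methylation and an untreated female. The genome was cut into fixed 1-kb bins, and a bin became a member when it held 5 to 9 CpGs with at least 10 valid Nanopore calls in gastrulae of an untreated cross, held at least 5 such CpGs in each of the other 3 Nanopore libraries, and had a pooled mCG level of at least 60% in the untreated cross. The mCG level is the share of 5-methylcytosine (5mC) calls among all valid calls at the CpGs of a bin. In all, 13355 bins were members, out of 235014 bins with a level in the 4 libraries, 19078 bins with 5 to 9 CpGs and 46932 bins of at least 60% mCG. The level in the untreated cross chose the members, so it is given as a description and nothing is read from it.

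All animals came from the Massachussets genotype. The untreated cross gave pooled gastrulae at 25 hours post-fertilization (hpf). Sperm came from a single male that had been treated as an embryo with GSK-3484862 (GSK), a small-molecule inhibitor of the maintenance methyltransferase DNMT1, and that had been picked for its low methylation. F1 gastrulae were pooled embryos at 25 hpf from that male and an untreated female, and the F1 juvenile was a single whole animal from a father treated with GSK and an untreated mother. The F1 animals were not themselves treated. Each of these stages had 1 library. Intervals on mCG levels are therefore 95% Wilson intervals, which cover counting error only and treat calls as independent, although calls on the same read are not, and no test compares stages. Further libraries came from whole gastrulae at 25 hpf kept in 5 µM GSK or in 0.1% DMSO since fertilization (F0), with 3 GSK and 2 DMSO libraries for chromatin accessibility (ATAC-seq), 3 and 3 for RNA-seq, and 2 GSK and 2 untreated wild-type libraries for transcription starts (CAGE-seq). Finally, 2 ATAC-seq libraries came from F1 gastrulae, not themselves treated, whose parents had both been treated with GSK. The paper describes 2 F1 lines of this kind, each from its own pair of parents. These crosses differ from that of the Nanopore F1 gastrulae, whose mother was untreated. Eggs of the untreated mother were not analysed here.

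In Nematostella, as in many invertebrates, CpG methylation is concentrated in the bodies of transcribed genes, a pattern called gene body methylation (gbM). DNMT1 and its partner UHRF1 copy methylation onto the new strand after replication, and DNMT3 enzymes can add it to unmethylated CpGs. Methylated cytosines deaminate to thymine, so sequence that has been methylated in the germline over evolution tends to lose CpGs, which is why CpG-poor sequence and gbM often go together.

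The 4 Nanopore libraries listed 8209568 to 8275425 CpGs each, with a mean of 33.5 valid calls per CpG in the untreated cross, 61.3 in sperm, 44.3 in the F1 gastrulae and 55.5 in the F1 juvenile. The nuclear mCG level was 12.3% in the untreated cross, 4.36% in sperm, 7.33% in the F1 gastrulae and 6.80% in the F1 juvenile. In the mitochondrial sequence it was between 0.040% and 0.168%. A member rested on a median of 259 calls in the untreated cross, 428 in sperm, 306 in the F1 gastrulae and 352 in the F1 juvenile, and no member had fewer than 51 calls in any library. Because CpGs were counted only where they had enough calls, 662 members (4.96%) listed more than 9 CpGs at any depth.

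CpG-poor methylated bins were on average intermediate in the sperm of the GSK-treated male, and the offspring lay between sperm and the untreated cross. Their pooled mCG level was 89.3% (89.29% to 89.36%) in the untreated cross, 60.9% (60.85% to 60.93%) in sperm, 72.6% (72.60% to 72.68%) in the F1 gastrulae and 70.3% (70.30% to 70.38%) in the F1 juvenile. The untreated cross had a median of 91.8%, with an SD over bins of 7.89 percentage points, in a range that the threshold of 60% cut off. In sperm the median was 66.5% and the SD 28.2 points, and the quartiles lay at 38.1% and 87.0%, with single bins from 0% to 99.7%. The F1 gastrulae had a median of 76.6% and an SD of 17.2 points. The F1 juvenile had a median of 74.7% and an SD of 19.4 points. In sperm 1524 members (11.4%) were under 20% and 7510 (56.2%) were at 60% or more. Only 44 members (0.329%) were under 20% in the F1 gastrulae and 137 (1.03%) in the F1 juvenile, so nearly all bins that were low in the father's sperm were not low in the offspring. The share of 5hmC calls stayed between 0.857% and 1.06% of valid calls in the 4 libraries.

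**Figure D1:**
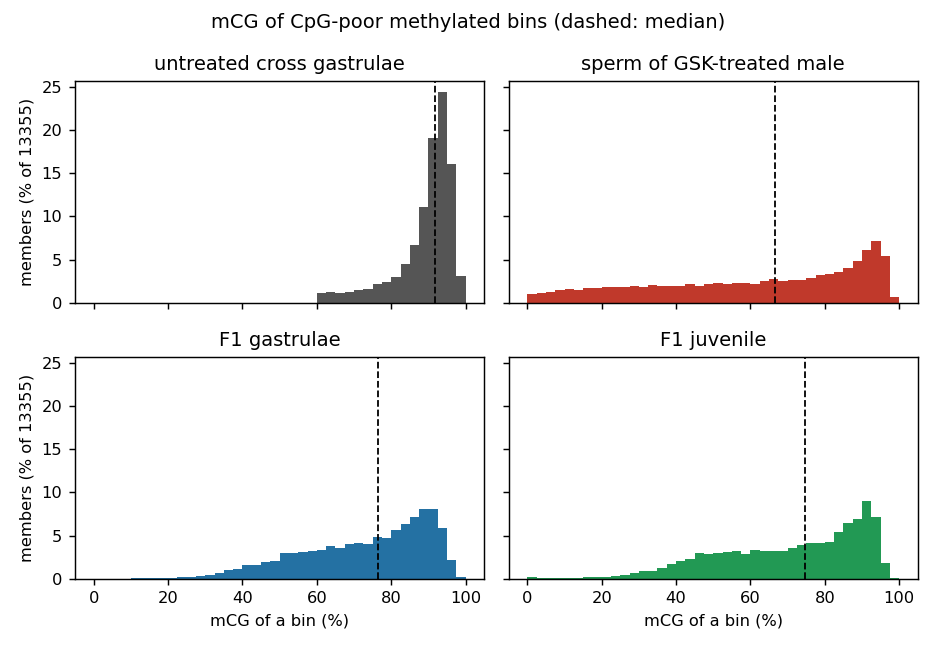
Distribution of the mCG level (percent, x axis) over the 13355 CpG-poor methylated bins (y axis, percent of bins), 1 panel for each Nanopore library, with the median dashed. The untreated cross holds only levels from 60% on, by the rule, with a median of 91.8%, sperm is spread over the whole range with a median of 66.5%, and the 2 offspring libraries lie between them.

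Single CpGs within a member differed as well. The SD between the CpGs of a bin had a median of 6.83 points in the untreated cross, 16.7 in sperm, 12.01 in the F1 gastrulae and 17.5 in the F1 juvenile. The F1 gastrulae had 49.2% of member CpGs at 20% to 80% and 47.9% at 80% or more. The juvenile had 40.6% and 53.8%, so it held more nearly fully methylated CpGs although its pooled level was lower. A median CpG had 44 calls in the F1 gastrulae and 50 in the juvenile, and the gastrulae were a pool of embryos while the juvenile was a single animal. What these differences contribute was not tested.

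The number of CpGs in a methylated bin ran with the level in sperm, also within the narrow range of the members. Bins with 5 CpGs (2088 bins) had a median sperm level of 69.8%, those with 6 (2631 bins) 69.7%, those with 7 (2750 bins) 67.9%, those with 8 (2874 bins) 63.5% and those with 9 (3012 bins) 62.0%. The share under 20% in sperm was 10.39% at 5 CpGs and 13.0% at 9 CpGs. Methylated bins with more CpGs were far lower. The median sperm level was 45.5% in 19901 bins with 10 to 19 CpGs, 23.1% in 7451 bins with 20 to 29 CpGs and 16.7% in 6225 bins with 30 or more, and the share under 20% was 21.8%, 43.5% and 59.8%. In the untreated cross, where all these bins were chosen at 60% or more, the medians of these classes lay between 86.7% and 92.6%. In the F1 gastrulae the median was 77.7% at 5 CpGs, 74.9% at 9 CpGs and 49.4% at 30 or more. In the juvenile these values were 75.9%, 73.2% and 48.4%.

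**Figure D2:**
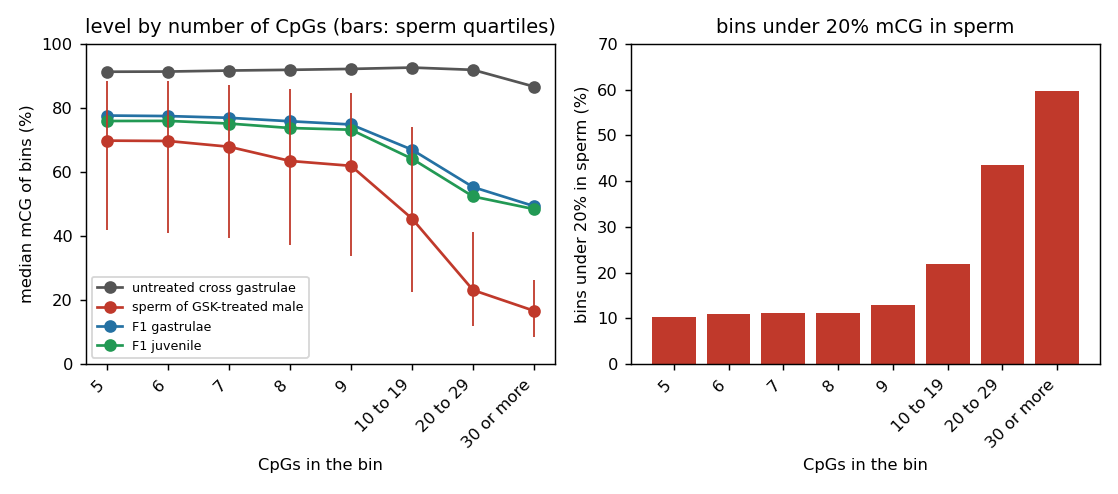
Left, median mCG (percent) of bins of at least 60% mCG in the untreated cross by the number of CpGs in the bin, for the 4 Nanopore libraries, with bars for the quartiles in sperm. Right, share of these bins (percent) under 20% in sperm. The sperm median goes from 69.8% at 5 CpGs to 16.7% at 30 or more. The untreated cross lies between 86.7% and 92.6%, a library in which all bins were chosen at 60% or more.

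The same order was seen inside single genes. In 5271 genes that held both members and methylated bins with 10 or more CpGs, each set was summed up by its median over bins. The members had the higher median sperm level in 3748 genes (71.1%), with a median difference of 14.7 points. Against methylated bins with 30 or more CpGs, the members were higher in 1329 of 1517 genes (87.6%), by a median of 29.9 points. In those 1517 genes the median sperm level was 55.6% in members and 19.3% in the CpG-rich bins. The untreated cross, in which both were chosen at 60% or more, had 91.7% and 90.1%. The difference was smaller in the offspring, with 71.2% against 51.4% in the F1 gastrulae and 69.3% against 49.3% in the juvenile.

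Members were almost all genic. Of the 13355 members, 12655 (94.8%) had their centre in the body of a protein-coding gene of the jaNemVect1.1 annotation, compared with 70.8% of all placed bins with a level, 92.2% of methylated bins with 10 or more CpGs and 46.6% of bins with 5 to 9 CpGs under 60%. The 700 members outside gene bodies were lower in sperm, with a median of 42.2% against 67.7% inside, and 23.4% of them were under 20%. They also had a lower median in the untreated cross, 87.3% against 91.9%. In the F1 gastrulae the medians were 62.0% outside and 77.2% inside, and in the juvenile 59.7% and 75.4%.

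Within genes, the sperm level of members was ordered by distance from the transcription start. Gene direction was taken from the dominant CAGE position of the untreated libraries where it lay within 500 bp of a gene's end, which oriented 8683 of 19206 genes and 10341 members. Members under 2 kb from the start (1739 bins) had a median sperm level of 85.2%, and only 1.04% of them were under 20%. The median was 78.9% at 2 to 5 kb (4606 bins), 51.1% at 5 to 10 kb (2617 bins), 37.0% at 10 to 20 kb (1027 bins) and 25.7% from 20 kb on (352 bins), where 42.3% were under 20%. In the untreated cross, which chose the members, the same classes had medians between 90.4% and 92.5%. The gradient was present in the offspring too, from 85.6% to 57.1% in the F1 gastrulae and from 84.0% to 55.2% in the juvenile.

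**Figure D3:**
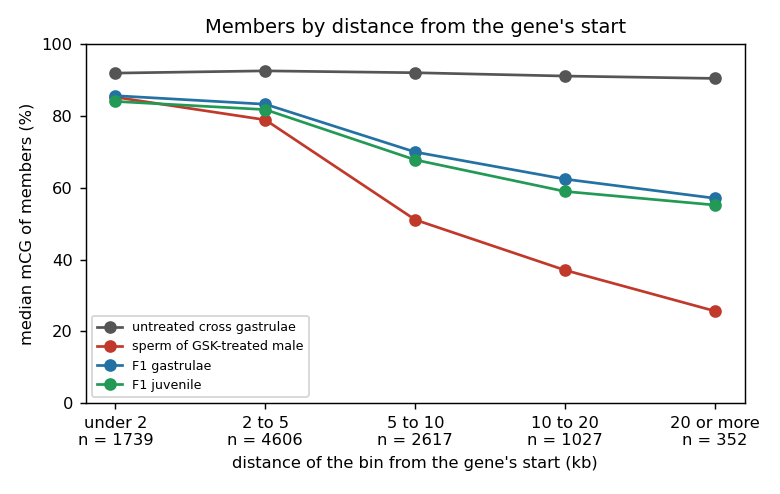
Median mCG (percent) of members by their distance from the gene's start (kb, with the number of bins under each class) in the 4 Nanopore libraries. The sperm median is 85.2% under 2 kb and 25.7% from 20 kb on. The line of the untreated cross is high throughout because members were chosen at 60% or more there.

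Gene length and CpG number each went with distance, so the classes were also set side by side. At 2 to 5 kb from the start, methylated bins with 5 to 9, 10 to 19 and 20 or more CpGs had median sperm levels of 78.9%, 61.7% and 30.4%. At 10 to 20 kb they had 37.0%, 22.9% and 16.1%. CpG number and distance thus each ordered the sperm level at a fixed class of the other. When each gene was split into 5 equal stretches from its start, the median sperm level of the members was 83.7% in the first stretch, 75.3%, 63.0% and 55.8% in those that followed, and 51.5% in the last. Members in genes under 10 kb had a median of 74.0% and those in genes of 50 kb or more 45.3%.

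Single genes often held members at both ends of the sperm range. Members lay singly or in numbers in 6260 genes, of which 3064 had 1 member and 323 had 5 or more. Among those 323 genes, 124 (38.4%) held members under 20% and members at 60% or more in sperm, and the range of sperm levels within a gene had a median of 60.1 points. LOC5501638 (chr15:1055444-1144588) had the most members, 18, and they ranged from 27.0% to 93.4% in sperm with a median of 45.8%, against a median of 95.02% in the untreated cross, 64.5% in the F1 gastrulae and 74.4% in the juvenile. LOC5517045 (chr3:1587233-1619094) had 17 members and was the opposite case. Its members lay between 74.6% and 98.3% in sperm, with medians of 95.5% in sperm, 94.6% in the untreated cross, 94.1% in the F1 gastrulae and 94.1% in the juvenile, so in this gene of 31.9 kb no member was below 74.6% in the male's sperm. The annotation gave no names beyond these identifiers, so no roles are stated for these genes.

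Members also lay in runs. They formed 9861 runs of adjacent bins, of which 7303 were a single bin and 51 had 5 bins or more. The longest run, 9 bins at chr4:4759001-4768000 in LOC5512872, went from 45.3% to 96.4% in sperm with a median of 84.3%. The next, 8 bins at chr8:7053001-7061000 in LOC5515258, went from 22.3% to 75.1% with a median of 25.5%, and its medians in the F1 gastrulae and the juvenile were 41.7% and 39.4%. Of the 3 runs of 7 bins, that at chr13:13073001-13080000 in LOC5508035 and LOC5508041 had a sperm median of 57.4%, that at chr2:6765001-6772000 in LOC5517906 91.3%, and that at chr3:1598001-1605000 in LOC5517045 94.4%. Adjacent members had a Pearson r of 0.66 between their sperm levels (3494 pairs of bins from the same library), which was 0.41 at 2 kb, 0.18 at 5 kb and 0.12 at 50 kb. Sperm levels were thus alike over a few kilobases and hardly beyond. By chromosome, the median sperm level of members was lowest on chromosome 5, at 45.2%, and highest on chromosome 10, at 81.0%.

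The members nearest the threshold show what the rule divided. Just inside it, the bin at chr6:4874001-4875000 had 60% in the untreated cross, 27.8% in sperm, 33.8% in the F1 gastrulae and 40.0% in the juvenile, and that at chr2:14139001-14140000 in LOC5521699 had 60%, 2.67%, 26.8% and 28.8%. Just outside, the bin at chr1:2087001-2088000 in LOC5516346 had 59.9%, 21.9%, 44.0% and 25.7%, and that at chr15:2050001-2051000 had 59.9%, 66.5%, 62.5% and 94.3%.

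The offspring followed the sperm level bin by bin. Members were put into 3 classes by sperm, which are a description of that library. The 1524 members under 20% in sperm had a pooled level of 11.02% in sperm, 45.3% in the F1 gastrulae and 43.0% in the juvenile, with 82.9% in the untreated cross. The 4321 members at 20% to 60% had 40.7% in sperm, 61.6% in the F1 gastrulae and 58.7% in the juvenile, with 87.0% in the untreated cross. The 7510 members at 60% or more had 82.7%, 84.8% and 82.7%, with 91.9% in the untreated cross. The midpoint between the sperm level and the level of the untreated cross, the latter standing in for an untreated mother, is what equal contributions from both parents would give without later change. The untreated term in it comes from the library that chose the members. The F1 gastrulae lay close to it, with a median difference of -2.14 points, and 89.3% of members were within 10 points of the midpoint. The median difference was -1.43, -2.10 and -2.20 points in the 3 sperm classes from low to high. In the same order, 75.7%, 82.4% and 96.1% of members were within 10 points of the midpoint. In the high class sperm and the untreated cross were already close.

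**Figure D4:**
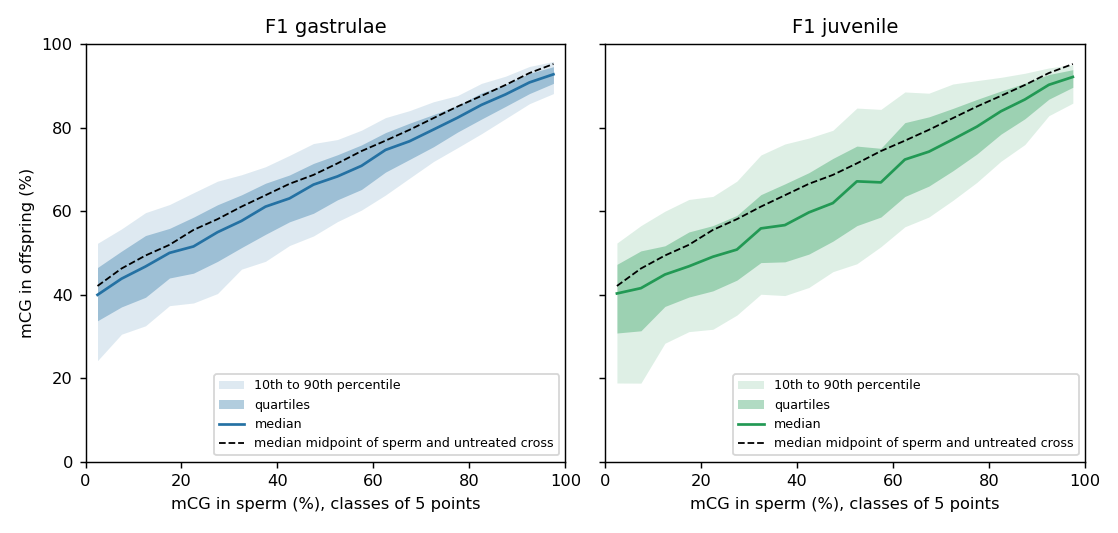
mCG (percent) of members in the F1 gastrulae (left) and the F1 juvenile (right) against their mCG in sperm (percent, in classes of 5 points). Lines are medians, bands are the quartiles and the 10th to 90th percentiles over bins, and the dashed line is the median midpoint of sperm and untreated cross. Both offspring follow the midpoint, and the band of the juvenile is wider.

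Bins at the ends of the sperm range show this directly. The bin at chr9:11322001-11323000 in LOC5507799 had 85.8% in the untreated cross and 0 methylated calls of 510 in sperm, which allows a level of up to 0.748%. The F1 gastrulae had 36.5% there and the juvenile 34.9%. The bin at chr2:993001-994000 in LOC5509100, 31.9 kb from the start of its gene, had 70.2% in the untreated cross, 0% of 430 calls in sperm, 30.3% in the F1 gastrulae and 34.6% in the juvenile. The bin at chr8:11823001-11824000 in LOC5515332, 23.2 kb from the start, had 92.2%, then 0% of 457 calls, then 45% and 42.8%. In these 3 bins no methylation was detected in sperm and both offspring libraries lay between 30.3% and 45%. At the other end, the bins at chr1:7028001-7029000 in LOC5519036, chr7:17104001-17105000 in LOC5511222 and chr9:16005001-16006000 in LOC5502904 had 99.7%, 99.2% and 99.1% in sperm, and all lay between 2.08 and 2.83 kb from the start of their gene. Their F1 gastrulae had 93.5%, 96.4% and 94.1%, and their juvenile 90.7%, 96.0% and 90.4%. Near the median of sperm, the bins at chr2:15202001-15203000 in LOC5521848, chr9:4577001-4578000 in LOC5517335 and chr14:4377001-4378000 in LOC5510157 all had 66.5% in sperm. Their F1 gastrulae had 73.9%, 68.5% and 81.4%, and their juvenile 76.2%, 72.3% and 60.3%.

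From gastrula to juvenile the level in members was nearly level on balance, but single bins moved in both directions. The median difference, juvenile minus F1 gastrulae, was -1.48 points, with quartiles of -8.47 and 4.14 points. The Wilson intervals of the 2 libraries overlapped in 8516 members (63.8%), the juvenile was higher without overlap in 1735 (13.0%) and lower in 3104 (23.2%). These counts were not made over other bins. By sperm class the median difference of members was -2.60 points in the low, -3.16 in the intermediate and -0.99 in the high class. The direction was not particular to members. Methylated bins with 10 to 19, 20 to 29 and 30 or more CpGs had median differences of -1.72, -1.68 and -1.08 points. The juvenile was lower in 57.6%, 55.3% and 53.5% of them, against 57.4% of members. Of the members under 20% in sperm, 1281 (84.1%) were at 20% to 60% in the juvenile, 138 (9.06%) at 60% or more and 105 (6.89%) still under 20%. Members at 60% or more in sperm remained so in 7210 cases (96.0%). There were 25 members under 20% in sperm, F1 gastrulae and juvenile alike, and these had a median of 70.3% in the untreated cross and 6.73% in sperm.

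The 3 largest gains were at chr8:4129001-4130000 outside any gene, with 69.2% in the untreated cross, 0% in sperm, 23.1% in the F1 gastrulae and 92.8% in the juvenile, at chr7:9451001-9452000 in LOC5504169, with 77.7%, 19.1%, 27.5% and 94.4%, and at chr9:10980001-10981000 in LOC5512656 and LOC116614933, with 78.8%, 24.1%, 28.7% and 83.0%. In all 3 the F1 gastrulae lay below the midpoint, by 11.5, 20.9 and 22.8 points. Choosing bins by juvenile minus F1 gastrulae itself favours a low level in the F1 gastrulae, so nothing is read from this. The largest losses came in part with CpGs listed in the juvenile alone. At chr15:4438001-4439000 in LOC5515660 the F1 gastrulae had 77.3% over 8 CpGs and the juvenile 9.04%, but over 30 CpGs and 3474 calls, and over the 8 CpGs shared by the 4 libraries the juvenile had 64.2%. At chr3:11005001-11006000 in LOC5519959 the F1 gastrulae had 86.3% over 8 CpGs and the juvenile 22.0% over 37 CpGs, and 68.8% over the 8 shared CpGs. At chr13:12492001-12493000 in LOC5519473 the 8 CpGs were the same in all libraries, and the level was 89.5% in the untreated cross, 63.4% in sperm, 86.1% in the F1 gastrulae and 24.8% in the juvenile. Of 17 losses of 50 points or more, 10 remained over shared CpGs, as did all 5 gains of that size. The juvenile had at least 3 more CpGs than the F1 gastrulae in 117 members and at least 3 fewer in 113.

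The difference between juvenile and gastrulae varied along chromosomes. Over 5845 members under 60% in sperm, the median difference was taken in 1-Mb windows with at least 5 such members. Of 260 windows the juvenile was higher in 84 and lower in 176, from -19.7 to 23.5 points, with 19 windows at 10 points or more higher and 36 at 10 or more lower. Some chromosomes held long stretches of like sign and others alternated, as chromosome 9 did, with 9 windows higher and 8 lower. Members under 60% in sperm about 1 Mb apart had the same sign in 55.5% of pairs. On chromosome 14 all 15 windows were lower in the juvenile, and on chromosome 8 the juvenile was higher in 14 of 17. Other chromosomes changed sign along their length, at windows chosen here from the values. On chromosome 6 the median difference was -8.14 points in 181 members before the window numbered 9 and 9.77 points in 224 members from it on. The first stretch had medians of 58.8% in the F1 gastrulae and 48.1% in the juvenile, and the other 55.2% and 67.5%. On chromosome 10 it was -13.3 points in 29 members before the window numbered 4 and 15.53 points in 175 members from it on, and on chromosome 11 it was -9.25 points in 197 members and 7.61 points in 90.

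**Figure D5:**
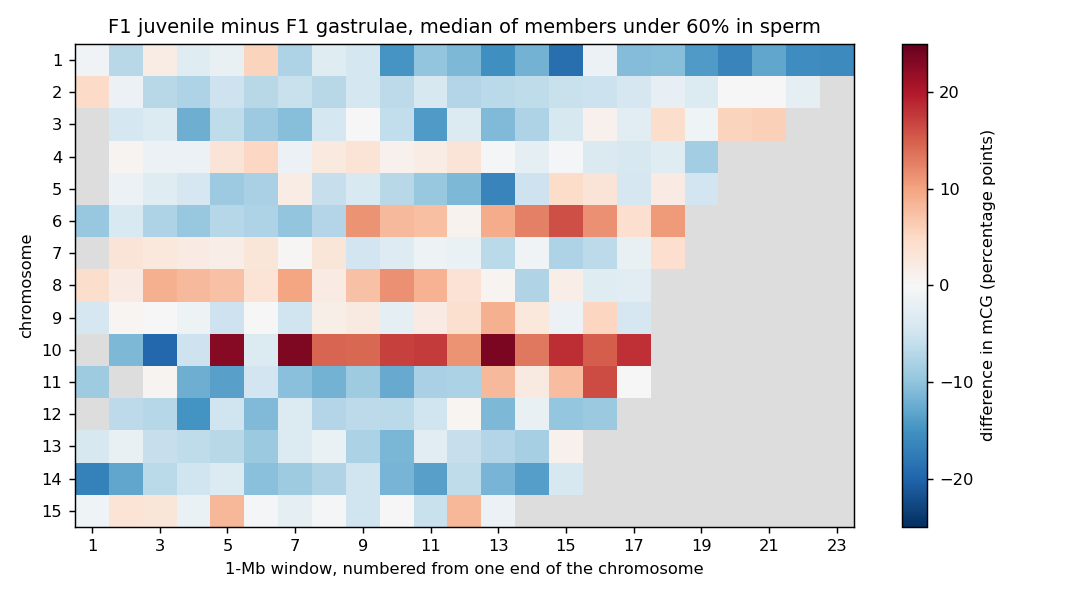
Median difference in mCG (percentage points, colour), F1 juvenile minus F1 gastrulae, of members under 60% in sperm in 1-Mb windows along each chromosome (rows), for windows with at least 5 such members. On some chromosomes neighbouring windows share a sign over long stretches, as on chromosome 6, where the median goes from -8.14 to 9.77 points.

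The pattern was not limited to the members. Methylated bins with 10 or more CpGs that were under 60% in sperm had the same sign in 222 of the 260 windows, with a Pearson r of 0.82 and a Spearman rho of 0.79 over windows. Members at 60% or more in sperm had the same sign in 186 of 248 windows (Pearson r 0.60). These window values share the same 2 libraries. Between pairs of members under 60% in sperm the Pearson r of the difference was 0.54 at 1 kb, 0.15 at 50 to 100 kb, 0.14 at about 1 Mb and 0.04 at about 5 Mb. That of the sperm level, whose range the cut at 60% narrowed, was 0.43, 0.13, 0.08 and 0.05. Over all members the r at 1 kb was 0.42 for the difference and 0.66 for the sperm level. At about 1 Mb it was 0.09 and 0.06. The ratio of juvenile to gastrula calls was between 0.666 and 1.77 over windows, with a median of 1.15. On chromosome 6 it was 1.17 before and 1.19 from the window where the sign changed. Genotypes of the parents were not analysed here.

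Chromatin accessibility was read from the merged ATAC-seq peaks, and peaks were assigned to the bin that held their centre. Peaks were rare in members. Of 36284 peaks, 411 were centred in 400 members, which is 2.995% of members, compared with 14.9% of all bins with a level and 7.04% of methylated bins with 10 or more CpGs. In GSK-treated against DMSO-treated F0 gastrulae, edgeR's quasi-likelihood test with Benjamini-Hochberg adjustment (FDR < 0.01) called 24 of the 411 peaks higher (5.84%) and 0 lower. Over all peaks, 1.44% were called higher and 0.229% lower. DESeq2 called 31 member peaks higher and 0 lower, of 768 peaks called in all. At an unadjusted p under 0.05 in edgeR, 87 member peaks were higher (21.2%) and 4 lower (0.973%). Over all peaks these shares were 7.59% and 4.00%. The median log2 fold change was 0.36 in members and 0.00 over all peaks, and 77.9% of member peaks lay above 0 against 49.6% of all. Without GSK replicate 1 the member median was 0.19 and 66.9% lay above 0. The peak list was merged from all libraries, those of GSK included. A methylated bin may therefore hold a listed peak only because it was open in GSK, which favours higher values in members. How much of the shift comes from this was not tested. Methylated bins with 10 or more CpGs had a higher share, with 356 of 2425 peaks called higher (14.7%) and a median of 0.54. The count of 24 became 15 without DMSO replicate 1 and 11 without DMSO replicate 2, of which 2 were lower. Without GSK replicate 1, 2 of 29 were lower. In whole embryos a change in the number of cells of a type cannot be told apart from a change per cell. By sperm class, 1 of 50 peaks was called higher in members under 20%, 8 of 143 in the intermediate class and 15 of 218 in members at 60% or more.

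The 5 called peaks with the largest change lay in genes and in members that were above 90% in the untreated cross, which is part of how members were chosen. Values are given as CPM (counts scaled to library size after TMM normalization). The peak at chr4:7203774-7204092 in LOC5519692 had 1.26 and 2.85 CPM in DMSO and 17.7, 13.1 and 24.0 CPM in GSK, a log2 fold change of 3.14 (SE 0.33, adjusted p = 1.7e-09, edgeR). Its member had 78.1% mCG in sperm, 87.3% in the F1 gastrulae and 69.7% in the juvenile. The peak at chr4:7391192-7392268 in LOC5519611 had 7.55 and 10.3 CPM in DMSO and 51.1, 67.9 and 58.1 CPM in GSK, a log2 fold change of 2.72 (SE 0.18, adjusted p = 2.65e-15, edgeR). Its member had 85.4% in sperm, 83.4% in the F1 gastrulae and 85.3% in the juvenile. In both peaks every GSK library was above both DMSO libraries. That held in all 24 called peaks, which the call itself favours, so nothing further is read from it. The peak at chr1:16027821-16028287 in LOC5511160 had 5.04 and 5.22 CPM in DMSO against 26.5, 21.0 and 26.3 in GSK. That at chr13:6462694-6462959 in LOC5517998 had 6.46 and 2.73 CPM against 12.7, 21.4 and 22.3, and lost its call without DMSO replicate 2 (adjusted p = 0.0111, edgeR). That at chr13:13962915-13963597 in LOC5506864 had 7.78 and 6.21 CPM against 28.1, 26.1 and 30.4. Their log2 fold changes were 2.26, 2.04 and 2.01. Over the 24 peaks the mean had a median of 6.52 CPM in DMSO and 19.7 CPM in GSK.

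In F1 gastrulae from GSK-treated individuals, compared with the same DMSO libraries, edgeR called 0 of the 411 member peaks in either direction, as it did over all 36281 peaks tested (percent called 0 and 0). At an unadjusted p under 0.05 in edgeR, 29 member peaks were higher (7.06%) and 11 lower (2.68%), against 4.92% and 4.40% of all peaks. DESeq2 called 1 member peak, of 90 peaks in all. The result rested on having both F1 libraries, since 186 member peaks (12465 over all) were called without F1 replicate 1 and 97 (8082 over all) without F1 replicate 2, where the lone F1 library is assumed to vary like the DMSO libraries. The F1 libraries were smaller, with 11366484 and 19253881 counts in peaks against 24059685 to 33980509 in the F0 libraries, and on simulated data this comparison recovered 11% of 4-fold changes, so a change of that size was mostly not detectable. The median log2 fold change was 0.40 in members and 0.03 over all peaks, and 72.5% of member peaks lay above 0 against 52.0% of all. With the replicate block the member median was 0.27 and 59.9% lay above 0. The limit from the merged peak list holds here too. The peak in LOC5519692 had 0.514 and 3.69 CPM in the 2 F1 libraries, and that in LOC5519611 had 11.4 and 22.6. Among the 24 peaks called in F0, both F1 libraries were above both DMSO libraries in 9, a count that was not made over all peaks. The 24 were chosen for being above these same DMSO libraries in F0, which favours this order, so nothing is read from the 9. Because the F0 and F1 comparisons share their DMSO libraries, these values are set side by side only.

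Gene expression was read from the RNA-seq counts of F0 gastrulae. Of 19231 genes, 6578 (34.2%) overlapped at least 1 member by the centre of a bin, and 6531 of these were tested. With edgeR (FDR < 0.01, Benjamini-Hochberg), 4 of them were called higher and 112 lower (1.71%), while DESeq2 called 44 higher and 405 lower, and 347 were higher and 969 lower at an unadjusted p under 0.05 in edgeR. Crosses were each split between GSK and DMSO, and when the replicate number entered the fit as a replicate block 1 of the 116 calls was left, although the labels do not say that a number marks a cross. Over all 16654 genes tested, 0.24% were called higher and 0.991% lower by edgeR, and DESeq2 called 949 genes in all. At an unadjusted p under 0.05 in edgeR, 8.74% of all genes were higher and 11.1% lower, against 5.31% and 14.8% of genes with members. Genes whose members were all under 60% in sperm had 76 of 1926 called lower (3.95%) and 0 called higher, with a median log2 fold change of -0.11. At an unadjusted p under 0.05, 453 of them were lower and 79 higher, and DESeq2 called 217 lower and 12 higher. Genes whose members were all at 60% or more in sperm had 21 of 2833 called lower (0.741%) and 2 higher, with a median of 0.00. Genes without a member that held a methylated bin with 10 or more CpGs had 48 of 2747 called lower (1.75%), and genes with no methylated bin had 5 of 7376 called lower and 33 higher. These gene sets differed in expression, with medians of 33.1, 44.4, 27.6 and 5.01 CPM in the order given. What this contributes to the shares called was not tested. DMSO replicate 3 stood apart from the other libraries, with a Pearson r of log2(CPM + 1) across genes of 0.966 and 0.974 with DMSO replicates 1 and 2, which had 0.994 with each other.

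The number of calls depended on which libraries were in the fit. The 116 called genes with members became 61 without DMSO replicate 1, 2 without DMSO replicate 2, 234 without DMSO replicate 3, 3 without GSK replicate 1, 2 without GSK replicate 2 and 2 without GSK replicate 3. All 116 were among the 234, and 59 were among the 61. The 76 genes with members under 60% in sperm became 44, 1, 138, 2, 1 and 1 in the same order. The medians moved less. That of genes with every member under 60% stayed between -0.12 and -0.09 over the fits made, and that of genes with every member at 60% or more between -0.02 and 0.01.

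The 4 genes with members that were called higher were LOC5510036, LOC5525232, LOC5510675 and LOC5501347. LOC5510036 (chr3:3323062-3328002) had 1.88, 1.70 and 1.32 CPM in DMSO and 18.5, 13.1 and 13.0 CPM in GSK, a log2 fold change of 3.18 (SE 0.25, adjusted p = 0.00149, edgeR). Its 3 members had a median of 91.7% in the untreated cross and 86.2% in sperm. LOC5525232 (chr2:19445184-19458359), with 8 members, had 14.6, 13.8 and 19.6 CPM in DMSO and 53.2, 37.4 and 49.8 CPM in GSK. The groups did not overlap in either gene, and the log2 fold changes of the other 2 were 0.84 and 0.81. Each of these 4 calls was lost under 5 or more of the alternatives that left out a library or added the replicate block.

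Among genes with members that were called lower, LOC5502487 (chr4:5325100-5329458) had the largest change, with 9.34, 12.8 and 22.1 CPM in DMSO and 1.23, 1.17 and 1.26 CPM in GSK, a log2 fold change of -3.59 (SE 0.35, adjusted p = 0.00325, edgeR). Its only member had 87.1% in the untreated cross, 14.2% in sperm, 46.5% in the F1 gastrulae and 62.2% in the juvenile. LOC5516660 (chr14:3930462-3937181), with 3 members and a sperm median of 51.2%, had 15.2, 15.54 and 12.4 CPM against 1.74, 2.22 and 1.85, a log2 fold change of -2.89. LOC5501320 (chr4:5633251-5640369) had 10.5, 11.2 and 10.7 CPM against 0.832, 2.09 and 1.56, and its only member had 94.9% in sperm. The GSK libraries were below all DMSO libraries in these 3 genes. Each of the 3 lost its call with the replicate block and without DMSO replicate 2, GSK replicate 1, GSK replicate 2 or GSK replicate 3, with adjusted p between 0.0117 and 0.0422 (edgeR). LOC5505626 and LOC116617681, with 1 member each at 20% and 24.4% in sperm, had log2 fold changes of -2.83 and -2.82, and lost their calls in the same 5 fits. The 2 genes with the most members were not called. LOC5501638 had 42.5, 43.2 and 41.2 CPM in DMSO and 38.3, 33.3 and 40.5 CPM in GSK (log2 fold change -0.18, SE 0.13, adjusted p = 0.461, edgeR). LOC5517045 had 182, 187 and 252 CPM in DMSO and 202, 185 and 159 CPM in GSK, so the groups overlapped (log2 fold change -0.19, SE 0.16, adjusted p = 0.557, edgeR). LOC5503260, with 12 members when bins shared with another gene are counted, had a log2 fold change of 0.20 and an adjusted p of 0.650 (edgeR). The genes called in RNA-seq and the genes with a called peak in a member shared 1 gene, LOC5521334, which is 0.862% of the 116 called genes and 4.00% of the 25 genes with such a peak.

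Transcription starts in members were rare in both conditions. A CAGE cluster overlapped 33 members in each untreated library and 41 and 40 members in the GSK libraries, which is 0.247% to 0.307% of members against about 4.20% of all bins with a level. Methylated bins with 10 or more CpGs had 0.423% to 0.494%. A cluster had to lie on the same strand to be shared. Counting a member where any library of a condition listed a cluster, 31 members had one in both conditions, 14 in GSK alone and 3 in the untreated libraries alone. The 14 are 0.105% of members, against 0.126% of all bins with a level and 0.140% of methylated bins with 10 or more CpGs. Members seldom held any cluster, in 48 cases (0.359%) against 10280 of all bins with a level (4.37%). Of those 48 members, 14 had it in GSK alone and 3 in the untreated libraries alone, against 295 and 258 of the 10280 bins. In methylated bins with 10 or more CpGs these were 47 and 24 of 196, so the excess in GSK was not particular to members. Where a cluster had to be listed in both libraries of a condition and in neither of the other, 5 members had it in GSK alone. These were 0.0374% of members, against 0.0604% of all bins, and 1 member had it in the untreated libraries alone. With 2 libraries in each condition and clusters that the authors had filtered, no test was made. The 5 members with a cluster in both GSK libraries and no untreated library had a median of 87.2% mCG in the untreated cross and 51.3% in sperm. The highest signal among them was on the minus strand at chr11:13963001-13964000, outside any gene, at 59.3 and 56.5 in the 2 GSK libraries, in a member with 82.4% in the untreated cross, 48.7% in sperm, 54.4% in the F1 gastrulae and 79.3% in the juvenile. The next were on the minus strand at chr6:10178001-10179000 in LOC5519813, at 30.6 and 19.9, and on the plus strand at chr1:6481001-6482000 in LOC5499274, at 26.6 and 23.1. None of these 3 members held the centre of an ATAC-seq peak.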

How the data were processed

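Per the methods and labels, genomic DNA was sequenced on Nanopore PromethION flow cells and modified bases were called with Dorado and summed with Modkit. The deposited Nanopore files join the strands of a CpG and hold the counts of valid calls and of those read as 5mC or 5hmC. For ATAC-seq the authors deposited read counts over peaks merged from all libraries (Chromap, MACS3, featureCounts), and for RNA-seq they deposited gene counts, of which the counting route was not stated. Neither table was scaled. For CAGE-seq the authors deposited tag clusters with a power-law scaled signal from CAGEr, filtered at thresholds not given in the sources used here. Every column of the count tables was tied to a sample by its title. The columns of F1 RNA-seq, and of F1 ATAC-seq from parents injected with morpholinos against DNMT1 and UHRF1, entered no fit here.

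Bins were 1 kb, levels used CpGs with at least 10 valid calls, and sperm classes were cut at 20% and 60%. Coordinates are 1-based on jaNemVect1.1, the assembly of the files, with gene bodies from the RefSeq gene table. No genome sequence was used here, so no sequences, exons or introns are given. Counts were tested with edgeR 4.0.16 in R 4.3.3 (TMM, filterByExpr, quasi-likelihood test, Benjamini-Hochberg adjustment, FDR < 0.01), on the libraries of the compared groups alone, and DESeq2 1.42.0 as an alternative. The SE of a log2 fold change is its size divided by the root of the F statistic. The methods describe F0 replicates as separate crosses, each split between GSK and DMSO, but the labels do not tie replicate numbers to crosses. The remaining steps used Python 3.11.15, numpy 2.4.6, pandas 2.3.3, scipy 1.17.1 and matplotlib 3.10.9. On simulated data with 200 changed features, 4-fold changes were recovered in 90% of cases for F0 ATAC-seq, 11% for F1 ATAC-seq and 86% for RNA-seq, and 2-fold changes in 54%, 0% and 27%. RNA-seq libraries held 22417362 to 29358798 counts.

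The members, classes and lists were chosen with earlier results of these data known. Gene orientation from CAGE-seq, the sides of chromosomes and the recount over shared CpGs were chosen after the files were seen. The text names the 3 members in gene bodies with the lowest, the 3 with the highest and the 3 nearest the median sperm level, of ordinary depth (between the 10th and the 90th percentile of calls). It also names the 3 largest gains and losses to the juvenile with separate intervals, 2 bins on each side of the 60% threshold, the 3 longest runs (5 with ties), up to 3 members with a CAGE cluster in GSK only, the 5 called peaks and 5 called genes in each direction with the largest change, at least 1 CPM and the same direction in every replicate, and the 3 genes with most members. Same-numbered replicates were not taken as pairs, since labels do not tie the numbers to a cross. The alternatives tried were other call minima, other baselines, 5hmC added, shifted bins, equal weights, other thresholds, DESeq2, RLE size factors, no filter, a replicate block and leaving out each replicate. The EM-seq methylomes and eggs were not analysed here.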

Additional observations from a re-analysis of the deposited data

How the results depend on the processing

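No named peak or gene that the main edgeR fits called changed sign under the alternatives run. For the other called peaks and genes only counts were compared. Some values that the main fits did not call changed sign. The F1 ATAC-seq log2 fold change of the peak in LOC5519692 went from 0.05 to -0.40 with the replicate block, -0.43 without DMSO replicate 1 and -1.98 without F1 replicate 2. Without F1 replicate 2 those in LOC5506864 and LOC5517998 went from 0.48 to -0.70 and from -0.83 to 0.12, and without F1 replicate 1 that in LOC5511160 went from 0.20 to -0.01. The median of genes with every member at 60% or more in sperm lay between -0.02 and 0.01 over the fits. The pooled levels of members in sperm, F1 gastrulae and F1 juvenile were 61.3%, 72.8% and 70.6% with at least 5 calls per CpG, 59.3%, 72.0% and 69.7% with at least 20, 61.9%, 73.4% and 71.2% with 5hmC added, 64.6%, 75.8% and 73.5% at a baseline of at least 80%, 61.1%, 73.1% and 70.6% with bins shifted by 500 bp, 61.0%, 72.8% and 70.6% with equal weight for bins, and 61.7%, 73.0% and 71.0% for members with at most 9 CpGs listed at any depth. Where the same CpGs had to have enough calls in the 4 libraries, sperm had 60.8% and the juvenile 70.6%. The share of members under the sperm threshold of 20% was 8.48% at a baseline of at least 80%, 10.8% with at most 9 CpGs listed, and 34.8% at a threshold of 50%. The median difference between F1 gastrulae and the midpoint was -2.36 points with 5hmC added and -2.03 points with shifted bins. In F0 ATAC-seq, 56 peaks were called when any overlap with a member counted, and leaving out a library gave 11 to 29. In the F0 fit 0 member peaks were called lower with edgeR. In F1 ATAC-seq DESeq2 called 1 member peak and 90 peaks in all, and leaving out a library gave 0 to 186. The high end was without F1 replicate 1 (97 without replicate 2), where 12465 peaks were called over all, and the lone F1 library is then assumed to vary like the DMSO libraries. For genes with members, DESeq2 called 449, FDR < 0.05 gave 352, genes with at least 3 members 29, and leaving out a library 2 to 234. For genes with every member under 60% in sperm, DESeq2 called 229, FDR < 0.05 gave 192 and leaving out a library 1 to 138. For genes with every member at 60% or more these were 133, 93 and 0 to 52. Requiring a CAGE cluster in each of a condition's libraries left 5 members in GSK alone and 1 in the untreated libraries alone.

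The replicate block, which fits same-numbered libraries together, called 24 member peaks in F0 ATAC-seq, 21 of them shared with the fit without it, and 0 in F1 ATAC-seq. In RNA-seq it called 1 gene with members, 1 gene with every member under 60% in sperm and 0 with every member at 60% or more. Deviations of same-numbered libraries from their group means had correlations of 0.04 and 0.01 in F0 ATAC-seq and of -0.43, -0.11 and -0.34 in RNA-seq, so the numbers share no sign of pairing. With 1 Nanopore library for each stage, the spread between animals is unknown.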
